A study of Mus musculus with 6 samples.

Results

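The E proteins and the Id proteins are helix-loop-helix regulators of transcription. 6 genes were taken by symbol, *Id1*, *Id2*, *Id3*, *Tcf3*, *Tcf4* and *Tcf12*, of 45777 genes in the tables. They were compared between CD4+Lrig1+ and CD4+Lrig1- T cells, which came from spleens of female C57BL/6 mice aged 7 weeks and were not stimulated or treated as far as the labels and methods say. Lrig1 is a transmembrane protein of the cell surface, and the study asked how the CD4+ T cells that carry it differ from those that do not. The labels list 6 samples, 3 per population. 4 libraries in 2 tables, with 1 library of each population in a table, could be tied to a population and are called set 1 and set 2. Nothing in the labels says that the libraries came from separate animals, so the p-values measure the spread between these 4 libraries only.

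All 6 genes passed the filter on low counts. The libraries held 44865070 to 59977951 estimated counts. *Lrig1*, the gene behind the sort, was at 75.4 and 36.7 CPM (counts relative to the library's total, scaled by TMM) in the Lrig1- libraries of set 1 and set 2, and at 221 and 129 CPM in the Lrig1+ libraries. *Foxp3*, the lineage factor of regulatory T (Treg) cells, was at 48.9 and 30.7 CPM in Lrig1- and at 589 and 615 CPM in Lrig1+ libraries. All 10 T cell identity markers were detected in every library, with sums of 4609 to 6751 CPM. Genes of other cell types were detected in every library as well, and their levels are given beside the members they moved with. In such bulk samples, fewer cells of a type and less RNA per cell cannot be told apart.

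E proteins bind DNA at the E-box as dimers, through a basic region that precedes the helix-loop-helix. Id proteins have the helix-loop-helix but no basic region, so an E protein paired with an Id protein does not bind DNA. In T cells, E proteins act in thymocyte development, in the follicular helper fate and in the upkeep of Treg cells, and Id2 and Id3 are the Id proteins known to hold them in check in peripheral CD4+ T cells. *Id3* is known as high in naive and follicular cells and *Id2* as high in effector cells, so the pair is often read together. *Tcf3* encodes E2A, which is made as E12 or E47 by a choice between 2 exons. *Tcf12* encodes HEB and *Tcf4* encodes E2-2, the factor that specifies plasmacytoid dendritic cells (pDCs).

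The 2 Id genes with most transcripts in these cells were *Id2*, on the minus strand of chromosome 12 at chr12:25093799-25096092, and *Id3*, on the plus strand of chromosome 4 at chr4:136143822-136145392 (GRCm38). The 250 bases before the start of each are shown because the 2 genes moved in opposite directions. They were taken from RefSeq (GRCm38.p6), at chr12:25096093-25096342 on the minus strand and chr4:136143572-136143821 on the plus strand, 5′ to 3′, with the E-box in capitals.
Id2: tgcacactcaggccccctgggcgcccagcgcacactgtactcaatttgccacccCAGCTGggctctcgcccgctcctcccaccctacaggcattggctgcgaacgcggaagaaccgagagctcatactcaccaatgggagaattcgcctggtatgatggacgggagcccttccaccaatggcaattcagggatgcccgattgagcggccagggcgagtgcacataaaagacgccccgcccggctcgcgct
Id3: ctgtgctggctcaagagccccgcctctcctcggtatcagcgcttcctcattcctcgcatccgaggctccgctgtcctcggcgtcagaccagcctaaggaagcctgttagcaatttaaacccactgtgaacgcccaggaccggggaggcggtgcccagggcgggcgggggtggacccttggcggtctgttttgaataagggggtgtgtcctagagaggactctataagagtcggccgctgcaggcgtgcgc
Both windows were 62.8% G and C. The letters CANNTG, which read the same on both strands, were found 1 time in the *Id2* window, 196 bases before the start, as CAGCTG, and 0 times in the *Id3* window. Of 32851 promoters of the same length, 66.2% held CANNTG and 4271 promoters held the form CAGCTG, which is counted in CANNTG as well. GGCGCC, letters that Smad proteins of the BMP pathway are known to bind, was found 1 time in the *Id2* window and 0 times in that of *Id3*, and 9.59% of promoters held it. GCGNGGGCG, a site of the Egr factors, was searched on both strands, found in neither window and held by 4.70% of promoters. 4 of the 6 members had a promoter in the RefSeq table, and *Id1* and *Tcf4* did not.

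Within each set, *Id2* was lower and *Id3* higher in Lrig1+ than in Lrig1- cells. *Id2* was at 126 CPM in the Lrig1- and 64.7 CPM in the Lrig1+ library of set 1, and at 154 and 73.3 CPM in set 2. *Id3* was at 26.5 CPM in the Lrig1- and 66.3 CPM in the Lrig1+ library of set 1, and at 45.6 and 110 CPM in set 2. For neither gene did the populations overlap: both Lrig1+ libraries were below both Lrig1- libraries for *Id2*, and above both for *Id3*. Of the 16123 genes tested, 14.3% were higher and 11.8% lower in Lrig1+ cells without overlap. The group means were 140 ± 20.1 CPM (SD, n = 2) in Lrig1- and 69.0 ± 6.08 CPM in Lrig1+ cells for *Id2*, and 36.1 ± 13.5 and 88.3 ± 31.1 CPM for *Id3*.

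The log2 ratio of Lrig1+ to Lrig1- CPM was -0.96 in set 1 and -1.08 in set 2 for *Id2*, and 1.32 and 1.27 for *Id3*. The medians over all genes tested were 0.01 and -0.06. Of all genes tested, 35.9% were higher and 41.3% lower in Lrig1+ cells in both sets. A log2 ratio above 1 in both sets, as for *Id3*, was found in 7.37% of genes, and one below -1 in both in 3.01%, with no member among them. *Id3* was higher in set 2 than in set 1 in both populations, by 0.78 on the log2 scale in Lrig1- and 0.73 in Lrig1+ cells, and the ratio between the populations was nearly the same in the sets.

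edgeR's quasi-likelihood test over the 4 libraries, with no term for the set, called none of the 6 members and 0 of the 16123 genes at a Benjamini-Hochberg adjusted p under 0.05. The smallest adjusted p over all genes was 0.501. At an unadjusted p under 0.05, it had 674 genes higher (4.18%), *Id3* among them, and 227 lower (1.41%), *Id2* and *Tcf4* among them. DESeq2's Wald test called 275 of 17640 genes higher (1.56%) and 43 lower (0.244%) after adjustment, and no member passed. In the quasi-likelihood test the log2 fold change of *Id2* was -1.02 ± 0.30 (SE; adjusted p = 0.715, edgeR), and that of *Id3* was 1.29 ± 0.46 (adjusted p = 0.888). With a term for the table that held the library (the table block, which leaves 1 residual degree of freedom), the fold change of *Id2* was -1.02 ± 0.07 (adjusted p = 1.1e-04 in edgeR) and that of *Id3* was 1.30 ± 0.08 (adjusted p = 4.3e-05 in edgeR). The table block called 14.6% of all genes higher and 12.8% lower, and of the 6 members 1 higher (*Id3*) and 2 lower (*Id2* and *Tcf4*). All calls of single genes below are from the fit with the table block. That fit shares variance among genes, so its p-values do not rest on the 1 residual degree of freedom alone. On simulated counts it made more false calls than its threshold allows. A two-sided exact permutation test of 2 libraries against 2 cannot give a p below 0.333, and this was its value for *Id2*, *Id3* and *Tcf4*.

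**Figure D1:**
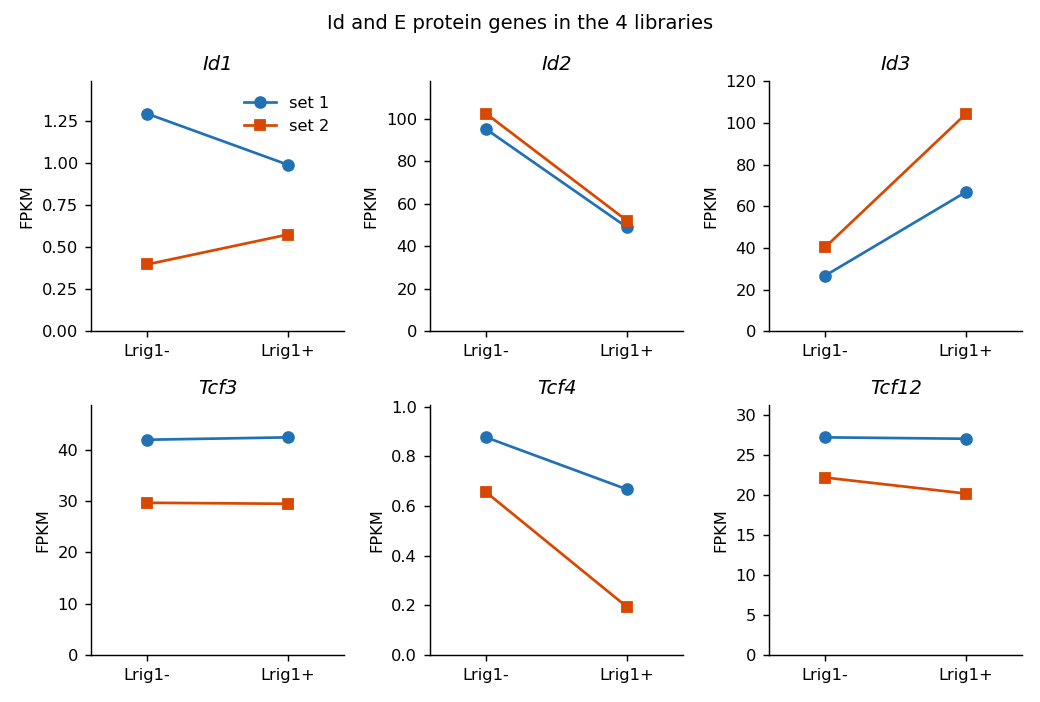
FPKM (linear axis from 0, a separate scale for each gene) of the 6 members in CD4+Lrig1- and CD4+Lrig1+ T cells. Each point is 1 library and each line joins the 2 libraries of a set. *Id2* falls from 95.1 to 48.9 and from 102 to 52.0, *Id3* climbs from 26.7 to 66.9 and from 40.4 to 104, and the lines of *Tcf3* are nearly level.

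The third Id gene, *Id1* (chr2:152736251-152737410), had few counts. It was at 1.29 CPM in the Lrig1- and 1.00 CPM in the Lrig1+ library of set 1, and at 0.481 and 0.627 CPM in set 2, which stands on 62, 52, 26 and 36 estimated counts. The populations overlapped and the sets went in opposite directions, with log2 ratios of -0.36 and 0.36. A difference in *Id1* was not detectable at this depth (log2 fold change -0.02 ± 0.45 with the table block, adjusted p = 0.981 in edgeR). *Id4*, the fourth gene of the Id family, had 0 counts in all 4 libraries, which allows up to 0.0627 CPM in the library with the fewest counts (3 counts; counting error only).

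Compared per length, as FPKM, *Id2* was the most abundant member in the Lrig1- libraries and *Id3* in the Lrig1+ libraries. In Lrig1- cells *Id2*, at 95.1 and 102 FPKM, was followed by *Tcf3* (41.9 and 29.6), *Id3* (26.7 and 40.4) and *Tcf12* (27.2 and 22.2). The ranges of *Tcf3* and *Id3*, and of *Id3* and *Tcf12*, overlapped there. In Lrig1+ cells the order was *Id3* (66.9 and 104 FPKM), *Id2* (48.9 and 52.0), *Tcf3* (42.4 and 29.4) and *Tcf12* (27.1 and 20.2), with no overlap between neighbours. *Id1* (0.398 to 1.30 FPKM) and *Tcf4* (0.193 to 0.877) were lowest in every library, and their ranges overlapped in both populations.

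The make-up of the Id transcripts changed more between the populations than their sum. The ratio of *Id2* to *Id3* FPKM was 3.56 in the Lrig1- and 0.732 in the Lrig1+ library of set 1, and 2.54 and 0.498 in set 2, so it was 4.87 and 5.09 times higher in Lrig1- cells. *Id2* made up 77.3% and 71.5% of summed Id FPKM in Lrig1- cells and 41.9% and 33.1% in Lrig1+ cells. The sum of *Id1*, *Id2* and *Id3* was 123 FPKM in Lrig1- and 117 in Lrig1+ cells in set 1, and 143 and 157 in set 2. The sum was lower in Lrig1+ cells in set 1 and higher in set 2. The summed FPKM of the 3 E protein genes was 70.0 in Lrig1- and 70.1 in Lrig1+ cells in set 1, and 52.5 and 49.8 in set 2. The ratio of the E sum to the Id sum was 0.569 and 0.600 in set 1 and 0.367 and 0.317 in set 2, and differed more between the sets than between the populations. These sums weigh transcripts by number and not by the strength of each protein, and they were not tested.

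**Figure D2:**
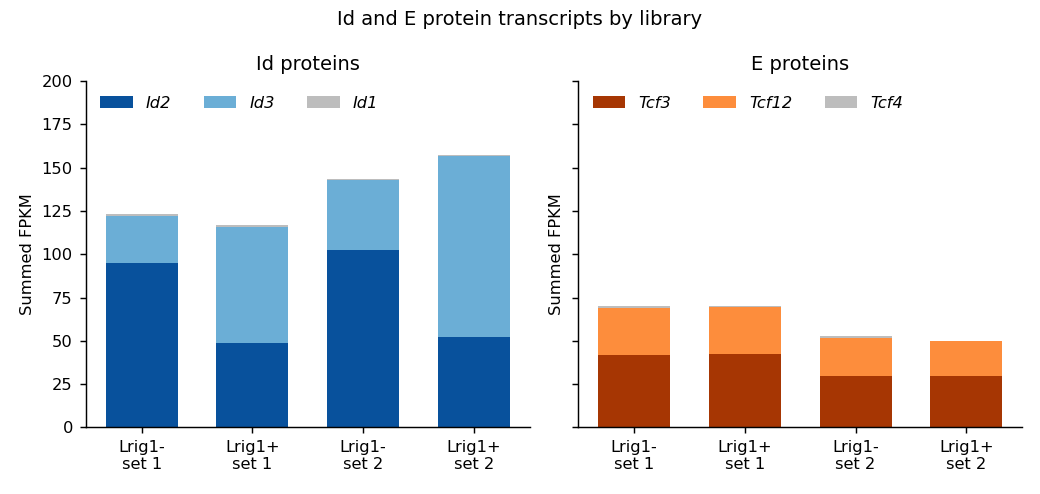
Summed FPKM of the Id genes (left) and of the E protein genes (right) in each library, as stacked bars from 0 on 1 shared axis. The Id bars stand at 117 to 157 FPKM and change from mostly *Id2* in Lrig1- to mostly *Id3* in Lrig1+ cells, and the E bars stand at 49.8 to 70.1 FPKM and are mostly *Tcf3* and *Tcf12*.

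*Tcf3* and *Tcf12*, the E protein genes with most transcripts in these cells, differed little between the populations. *Tcf3*, on the minus strand at chr10:80409541-80433976, was at 144 CPM in the Lrig1- and 146 CPM in the Lrig1+ library of set 1, and at 116 and 108 CPM in set 2. *Tcf12*, on the minus strand at chr9:71844252-72111893, was at 131 and 131 CPM in set 1 and at 123 and 104 CPM in set 2. The populations overlapped for both genes. The log2 ratios were 0.02 and -0.11 for *Tcf3* and 0.00 and -0.24 for *Tcf12*, and neither passed the test with the table block (*Tcf3*: -0.04 ± 0.07, adjusted p = 0.718; *Tcf12*: -0.12 ± 0.08, adjusted p = 0.345, edgeR). For *Tcf3* the difference between the sets, -0.30 in Lrig1- and -0.44 in Lrig1+ cells on the log2 scale, was larger than that between the populations.

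**Figure D3:**
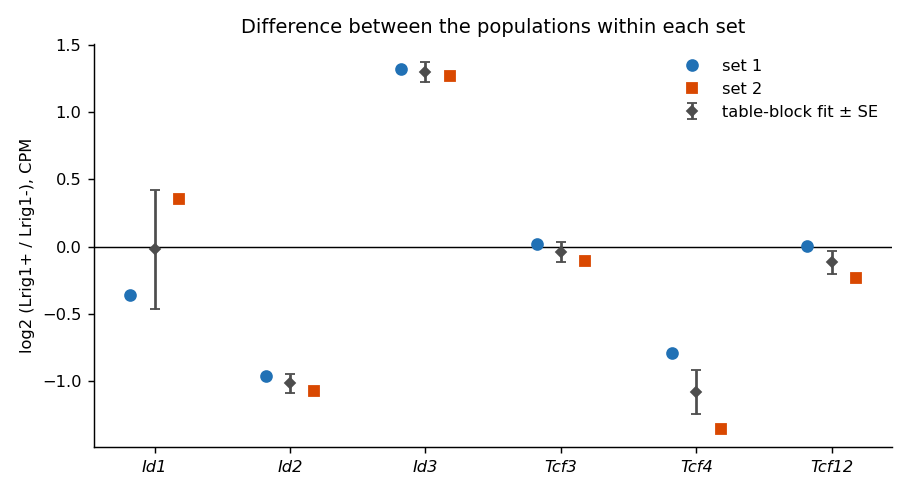
Log2 ratio of Lrig1+ to Lrig1- CPM for each member in set 1 (circles) and set 2 (squares), with the log2 fold change of the table-block fit and its SE (diamonds and bars). *Id3* lies near 1.3 and *Id2* near -1.0 in both sets, *Tcf4* at -0.79 and -1.36, and *Id1* on both sides of 0.

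The E12 and E47 forms of E2A share the gene but carry different DNA-binding domains, each coded by its own exon. The 2 exons are shown because the counts of the transcripts that hold them differed between the populations while the gene total did not pass the test. By the GENCODE annotation of GRCm38, the E12 exon is at chr10:80412827-80413062 and the E47 exon at chr10:80410398-80410624, both on the minus strand. The longest run of bases they share is in capitals.
E12 exon: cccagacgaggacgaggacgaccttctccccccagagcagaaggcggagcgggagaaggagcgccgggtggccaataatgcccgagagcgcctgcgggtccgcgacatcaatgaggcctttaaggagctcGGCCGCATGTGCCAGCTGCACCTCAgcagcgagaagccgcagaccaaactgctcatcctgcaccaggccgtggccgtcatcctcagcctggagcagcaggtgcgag
E47 exon: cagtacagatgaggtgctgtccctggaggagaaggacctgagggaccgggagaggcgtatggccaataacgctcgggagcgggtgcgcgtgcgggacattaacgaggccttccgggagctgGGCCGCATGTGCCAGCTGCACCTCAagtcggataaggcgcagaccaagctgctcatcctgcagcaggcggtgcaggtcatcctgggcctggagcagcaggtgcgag
The exons, of 236 and 227 bases, were identical at 175 of 236 aligned positions (74.2%), with a longest shared run of 25 bases. Of the 20 *Tcf3* transcripts in the tables, 3 carried the E12 exon and 5 the E47 exon, and 12 could not be assigned because they had no match of their own in GENCODE. This split of the transcripts was chosen after their values were seen.

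Estimated counts on E12 transcripts were 1576 in the Lrig1- and 2384 in the Lrig1+ library of set 1, and 1169 and 2044 in set 2. Those on E47 transcripts were 4076 and 4911 in set 1, and 3221 and 3653 in set 2. The E12 share of the assigned counts was 27.9% (95% Wilson interval 26.7 to 29.1) in Lrig1- and 32.7% (31.6 to 33.8) in Lrig1+ cells of set 1. In set 2 it was 26.6% (25.3 to 28.0) in Lrig1- and 35.9% (34.6 to 37.1) in Lrig1+ cells. The share was higher in both Lrig1+ libraries than in both Lrig1- libraries. The intervals cover counting error only, and not the division of reads among near-identical transcripts by the assembler. The counts that were not assigned moved as well, from 17.8% of the gene in Lrig1- to 3.81% in Lrig1+ cells in set 1 and from 30.2% to 7.99% in set 2. How these counts divide between E12 and E47 is not known, and the E12 share was not tested.

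**Figure D4:**
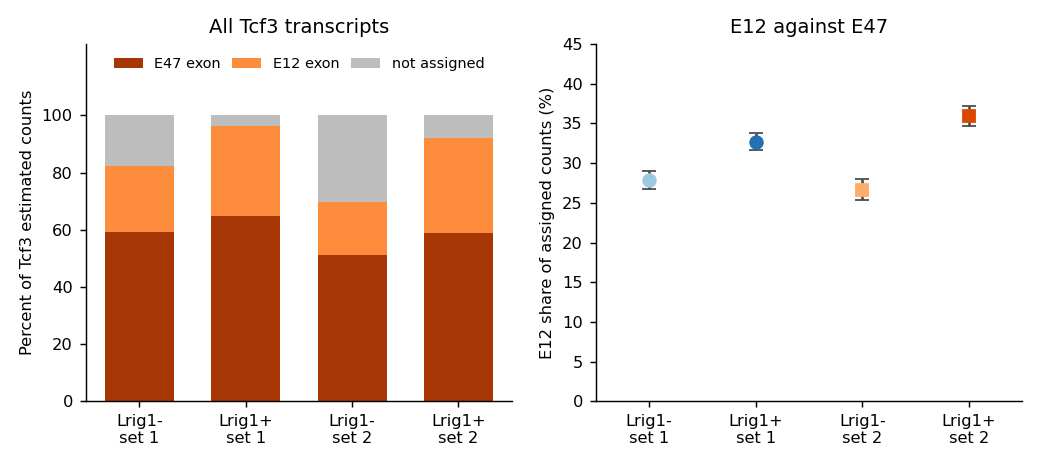
Left: percent of *Tcf3* estimated counts on transcripts with the E47 exon, with the E12 exon and not assigned, as stacked bars for each library. Right: E12 share of the assigned counts with 95% Wilson intervals, which was 27.9% and 26.6% in Lrig1- and 32.7% and 35.9% in Lrig1+ cells.

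Single transcripts of *Tcf3* moved in both directions. Variant 7, an E47 form, went from 955 to 394 estimated counts in set 1 and from 721 to 186 in set 2 between Lrig1- and Lrig1+ cells. Variant 3, an E12 form, went from 527 to 902 and from 410 to 839 counts. The predicted variant X7 went from 785 to 182 and from 192 to 34 counts. Of the 93 transcripts of the 6 members, 44 were tested and 36 held at least 5% of their gene's counts in some library. No transcript of any gene passed edgeR's test after adjustment, with or without the table block (0 of 45339). Of the 18 transcripts of *Tcf12*, 12 start within 2000 bases of the most upstream start, and these held 97.2% to 100% of the gene's counts.

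*Tcf4*, on the plus strand of chromosome 18, was the E protein gene with the fewest transcripts, and it was lower in Lrig1+ cells. It was at 11.1 CPM in the Lrig1- and 6.40 CPM in the Lrig1+ library of set 1, and at 14.9 and 5.82 CPM in set 2, which stands on 532, 333, 807 and 334 estimated counts. Both Lrig1+ libraries were below both Lrig1- libraries, as for 11.8% of all genes tested. The log2 ratios were -0.79 and -1.36, and the log2 fold change was -1.09 ± 0.36 without the table block (adjusted p = 0.815, edgeR) and -1.08 ± 0.17 with it (adjusted p = 0.00317 in edgeR). On the FPKM scale *Tcf4* in Lrig1+ cells was at 0.761 of its Lrig1- level in set 1 and at 0.295 in set 2. Part of the counts lay on predicted transcripts of 35200 to 35215 bases, where a count weighs little per length.

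The estimated split of the *Tcf4* counts among its transcripts differed between libraries. Transcripts that start within 10000 bases of the most upstream start held 53.9% (95% Wilson interval 49.7 to 58.1) of the counts in the Lrig1- and 67.0% (61.7 to 71.8) in the Lrig1+ library of set 1. In set 2 they held 24.2% (21.3 to 27.2) in Lrig1- and 7.78% (5.37 to 11.2) in Lrig1+ cells. The share was higher in Lrig1+ cells in set 1 and lower in set 2. Here too the intervals cover counting error only, and not the division of reads among similar transcripts. The share was not tested. The sum of the FPKM of these upstream transcripts was 0.714 in Lrig1- and 0.535 in Lrig1+ cells of set 1, and 0.381 and 0.0560 in set 2.

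Most markers of pDCs, where *Tcf4* is known to be high, were also lower in Lrig1+ cells. Of the 10 pDC markers, 8 were lower in both sets and 6 passed the test with the table block as lower (0 as higher), with a median log2 fold change of -1.13 against -0.04 for all genes tested. Of these, 41.3% of genes were lower in both sets, 12.8% passed as lower and 14.6% as higher. Siglec-H (*Siglech*), a surface lectin of pDCs, was at 12.6 CPM in the Lrig1- and 3.77 CPM in the Lrig1+ library of set 1, and at 27.0 and 2.54 CPM in set 2. *Pacsin1* alone was higher in both sets. In Lrig1- and Lrig1+ cells it was at 95.8 and 114 CPM in set 1 and at 68.9 and 77.8 CPM in set 2. The markers summed to 213 and 422 CPM in the Lrig1- and 218 and 283 CPM in the Lrig1+ libraries of set 1 and set 2. *Cd300c* was the only one of them at 0 counts, in the Lrig1+ library of set 2, and 3 of the list, *Spib*, *Irf8* and *Ly6d*, are known from B cells as well. The part of these cells in the *Tcf4* difference was not tested.

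*Id2* is known to be high in NK cells and conventional dendritic cells, and most markers of both moved with it. Of the 10 NK cell markers, 8 passed as lower and 1, *Eomes*, as higher, and the list summed to 84.5 and 225 CPM in Lrig1- and 46.1 and 108 CPM in Lrig1+ cells of set 1 and set 2. 4 of them, *Eomes*, *Gzma*, *Prf1* and *Klrd1*, are known from T cells too. The methods state that CD4+ T cells were isolated. Markers of CD8 T cells and B cells were also detected in every library. Of the 8 conventional dendritic cell markers, 5 passed as lower and 0 as higher, and they summed to 48.6 and 37.0 CPM in Lrig1- and 10.9 and 11.5 CPM in Lrig1+ cells. *Xcr1* alone of these 8 was higher in both sets, and it did not pass. In Lrig1- and Lrig1+ cells it was at 0.251 and 0.923 CPM in set 1 and at 0.833 and 1.41 CPM in set 2. No marker of the 2 lists was at 0 in any library, and their part in the *Id2* difference was not tested. Of the 10 T cell identity markers 2 passed as higher and 0 as lower, and of the 10 markers of macrophages, monocytes and neutrophils 3 passed as higher and 2 as lower. Both CD8 T cell markers passed as lower and summed to 19.5 and 97.3 CPM in Lrig1- and 14.1 and 51.6 CPM in Lrig1+ cells. For all the lists of this paragraph, the shares to compare are 14.6% of all genes tested as higher and 12.8% as lower.

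**Figure D5:**
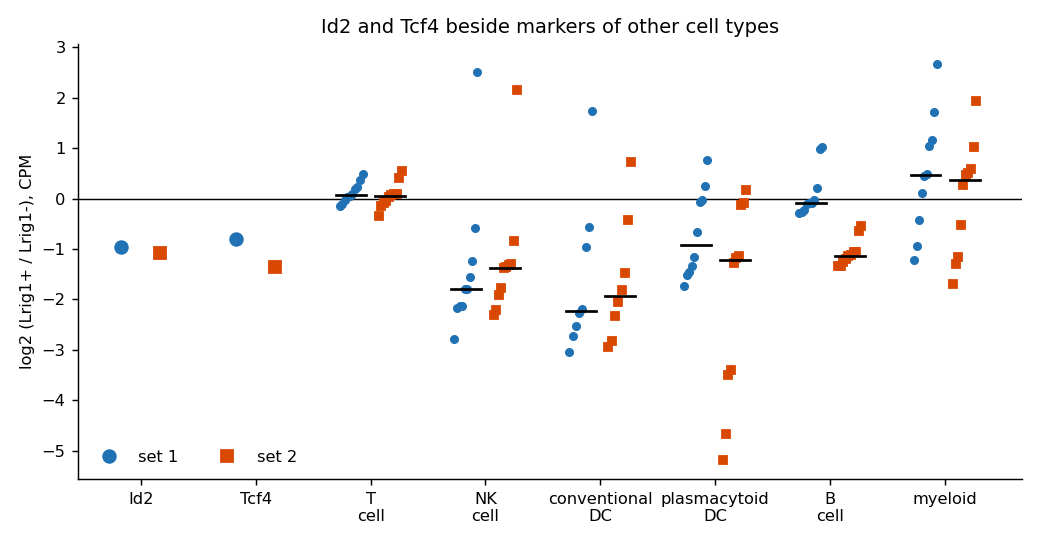
Log2 ratio of Lrig1+ to Lrig1- CPM in set 1 (circles) and set 2 (squares) for *Id2*, *Tcf4* and every gene of 6 marker lists, with a black line at each list's median. *Id2* and *Tcf4* lie within the range of the NK cell, conventional DC, plasmacytoid DC (DC, dendritic cell) and myeloid markers. Both lie below all T cell markers. *Id2* lies within the range of the B cell markers in set 2 and below it in set 1, and *Tcf4* lies below it in both. The lowest point, *Cd300c* in set 2, had 0 counts in Lrig1+ cells, and its ratio depends on the prior count of 2.

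E proteins act with partners: other helix-loop-helix proteins that dimerize with them, the LMO and LDB adaptors, and the coactivators and corepressors they recruit. Of 16 such genes, 11 were tested, and 2 passed as higher, 3 as lower and 6 in neither direction, with a median log2 fold change of -0.04, as for all genes. The shares of all genes tested that passed were 14.6% as higher and 12.8% as lower. *Bhlhe40*, a repressor that binds E-boxes, was at 31.5 CPM in the Lrig1- and 90.9 CPM in the Lrig1+ library of set 1 and at 21.0 and 68.6 CPM in set 2 (log2 fold change 1.62 ± 0.09, adjusted p = 3.0e-05, edgeR with the table block). *Ascl2*, an E protein partner known from follicular helper T cells, was low, at 0.146 and 1.00 CPM in set 1 and 0.111 and 3.26 CPM in set 2 (3.87 ± 0.59, adjusted p = 0.00311). Of the genes that passed as lower, *Cbfa2t3*, a corepressor of the ETO family, was at 12.1 and 2.79 CPM in set 1 and 7.50 and 2.3 CPM in set 2 (-1.91 ± 0.18, adjusted p = 3.6e-04). *Lmo2*, an adaptor between E proteins and GATA factors, was at 3.43 and 1.54 CPM and at 10.6 and 5.55 CPM (-1.03 ± 0.18, adjusted p = 0.00571). The third was the coactivator *Crebbp* (-0.46 ± 0.09, adjusted p = 0.0109).

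Genes that E proteins are known to activate in the T lineage moved in both directions. Of 13, 10 were tested, and 1 passed as higher, 3 as lower and 6 in neither direction, with a median log2 fold change of -0.08. Among all genes tested, 14.6% passed as higher and 12.8% as lower. *Cxcr5*, the chemokine receptor of follicular cells, was at 11.6 CPM in the Lrig1- and 94.0 CPM in the Lrig1+ library of set 1, and at 57.9 and 187 CPM in set 2 (2.3 ± 0.27, adjusted p = 8.7e-04, edgeR with the table block). *Il7r*, the receptor chain for IL-7, was at 606 and 326 CPM in set 1 and 579 and 190 CPM in set 2 (-1.25 ± 0.16, adjusted p = 0.00140). *Tcf7*, which encodes TCF-1, was at 1713 and 1094 CPM and at 2218 and 1306 CPM (-0.71 ± 0.11, adjusted p = 0.00363). *Foxo1*, a factor of quiescent T cells, was at 423 and 337 CPM and at 508 and 376 CPM (-0.38 ± 0.09, adjusted p = 0.0158). These 4 genes were named by the smallest p in their list. The populations did not overlap for them. Without overlap, 14.3% of all genes tested were higher and 11.8% lower. *Rag1*, *Rag2* and *Ptcra*, targets in thymocytes, were too low to be tested.

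The targets of E2A in the B lineage followed the set more than the population. 8 such genes summed to 33.5 CPM in the Lrig1- and 38.7 CPM in the Lrig1+ library of set 1, and to 418 and 220 CPM in set 2. Of the 7 tested, *Blnk*, an adaptor of the B cell receptor, passed as lower (-0.76 ± 0.18, adjusted p = 0.0182, edgeR with the table block) and 6 passed in neither direction. The share of all genes tested that passed as lower was 12.8%. The 4 with the smallest p were *Blnk*, *Ebf1*, *Cd79a* and *Pax5*, with log2 ratios of -0.38, -0.27, -0.03 and -0.09 in set 1 and of -1.01, -1.26, -1.05 and -1.34 in set 2. The 10 B cell markers, which share genes with this list, summed to 78.5 and 98.3 CPM in set 1 and to 775 and 391 CPM in set 2, and 2 of them passed as lower. Their part in these values was not tested.

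*Id* genes are known to respond to BMP and TGF-β receptors through Smad proteins, to T cell receptor signals through Egr factors, and to cytokines through STAT5. Of 16 genes of these pathways, 14 were tested, and 6 passed as higher, 5 as lower and 3 in neither direction, with a median log2 fold change of 0.32. Among all genes tested, 14.6% passed as higher and 12.8% as lower. *Egr2*, which T cell receptor signals induce, was at 16.9 CPM in the Lrig1- and 56.2 CPM in the Lrig1+ library of set 1, and at 16.4 and 60.6 CPM in set 2 (1.81 ± 0.09, adjusted p = 2.6e-05, edgeR with the table block). *Bmpr2*, a type II receptor for BMPs, was at 11.8 and 27.7 CPM and at 8.39 and 19.3 CPM (1.21 ± 0.10, adjusted p = 2.2e-04). *Tgfbr1*, the type I receptor for TGF-β, was at 59.4 and 93.9 CPM and at 40.2 and 61.9 CPM (0.64 ± 0.07, adjusted p = 8.1e-04). The other genes that passed as higher were *Bmpr1a*, *Egr3* and *Stat5a*. *Smad7*, the inhibitory Smad, was at 185 and 102 CPM in set 1 and at 117 and 52.3 CPM in set 2 (-1.01 ± 0.09, adjusted p = 2.9e-04). The other genes that passed as lower were the type II TGF-β receptor *Tgfbr2* and the signal transducers *Smad1*, *Smad5* and *Smad4*. Receptors of the pathways thus passed in both directions, and *Egr1* (-0.04 and 0.33 in the sets) in neither.

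The genes whose pattern over the 4 libraries was most like that of a member were found by the largest difference in log2 CPM, after centring each gene on its own mean, among about 8830 genes with a mean of at least 10 CPM. For *Id3* they were *H2afz* (largest difference 0.04), *Samsn1* (0.07) and *Gpr34* (0.10). For *Id2* they were *Slc16a10* (0.06), *Il18rap* (0.09) and *Otud1* (0.09), and for *Tcf4* they were *Nfe2l2* (0.09), *Acss2* (0.10) and *Galnt10* (0.11). *Arnt*, *Fastkd3* and *Zfp945* were nearest to *Tcf3* (0.02 to 0.03), *Mapk8*, *Dgcr2* and *Rdh13* to *Tcf12* (0.01 to 0.03), and *Srsf2*, *AW011738* and *Hsf1* to *Id1* (0.10 to 0.15). The likeness rests on 4 points a gene and was not tested.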

How the data were processed

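Reads of splenic CD4+ T cell libraries (stranded mRNA kit, paired ends) were processed by the authors with Trimmomatic 0.38, HISAT2 2.1.0 and StringTie 2.1.3b. The submitters' processing notes name GRCm38/mm10. The estimated counts per RefSeq transcript were deposited unnormalized, and the FPKM values were scaled by the authors by transcript length and library. Both were summed per gene symbol. The strand setting of the counting is not given in the sources used here. Another 6 columns of per-sample values, in a table whose names give no population, were not used, so 4 libraries of the 6 labelled samples entered the fits (44865070 to 59977951 estimated counts).

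Low genes were removed with filterByExpr, libraries were scaled by TMM and tests were run with edgeR 4.0.16 under R 4.3.3 (quasi-likelihood, Benjamini-Hochberg over all genes, adjusted p under 0.05). The prior count for within-set ratios was 2. SE was the log2 fold change over the root of F. Alternatives were the table block, DESeq2 1.42.0 (size factors, Wald test), no filter, limma 3.58.1 on log2 FPKM with a pseudocount of 1 or 0.1, and leaving out each library. The procedure was tested on simulated counts, where the fit without the table block recovered none of the changed genes and the fit with it recovered most of them, but with more false calls than its threshold allows. On simulated transcripts neither fit recovered any, so the absence of transcript calls says nothing about transcripts. The members and lists were chosen with earlier results of these data known. Named genes were the members, *Lrig1*, *Foxp3*, *Id4*, member transcripts with at least 5% of the gene's counts (summarised), the 4 genes of each list with the smallest p in the table-block fit, and the 3 genes most like each member. Others were named after their values were seen. Exons and sequences came from GENCODE and RefSeq files of GRCm38.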

Additional observations from a re-analysis of the deposited data

How the results depend on the processing

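No paired analysis was possible by replicate, because the columns carry no replicate numbers. The fit with the table as a block compares the 2 libraries within each table, and took its place. The count of genes past the threshold was 0 higher and 0 lower without the block. It was 2358 and 2056 with the table block, 1734 and 1708 with the table block and DESeq2's Wald test, 1304 and 820 with the table block and no filter on low counts, and 275 and 43 with DESeq2's Wald test alone. Leaving out 1 library without the block gave 1 to 88 genes higher and 0 to 2 lower, with the most, 88, without the Lrig1- library of set 1. The lone library left in a population is then assumed to vary like the other population. Of the members, 1 (*Id3*) passed as higher and 2 (*Id2* and *Tcf4*) as lower in each of the 3 fits with the table block, against 0 without it.

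*Id2*, *Id3* and *Tcf4* kept their direction in 12 of 12 alternatives and were past the threshold in 3 of 12, the 3 with the table block. Their adjusted p over the 12 reached from 2.1e-24, 2.3e-26 and 8.6e-04 to 1. With a library left out, the log2 fold change was -1.12 to -0.86 for *Id2*, 0.87 to 1.74 for *Id3* and -1.25 to -0.86 for *Tcf4*, and *Tcf4* was at -0.32 in limma on log2(FPKM + 1). The other 3 members changed sign. *Id1* was at 0.043 in limma on log2(FPKM + 0.1) and, with a library left out, at -0.67 to 0.79 (0.79 without the Lrig1- library of set 1 and 0.17 without the Lrig1+ library of set 2). *Tcf3* was at 0.003 and 0.0031 in limma with the pseudocounts 1 and 0.1 and at -0.24 to 0.16 with a library left out (0.16 without the Lrig1- library of set 1 and 0.16 without the Lrig1+ library of set 2). *Tcf12* was at -0.26 to 0.04 with a library left out (0.0439 without the Lrig1+ library of set 2). The cause was not tested. With 2 libraries a population and 26 to 62 counts of *Id1* a library, changes of *Id1* and of single *Tcf4* transcripts could not be resolved.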

Other observations

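The members also differed between the sets, which are 2 tables of libraries with no batch label. *Id3* was higher in set 2 in both populations and *Tcf3* lower in both, with differences in log2 CPM between the sets of 0.78 and 0.73 for *Id3* and -0.30 and -0.44 for *Tcf3* in Lrig1- and Lrig1+ cells. *Id2* was higher in set 2 by 0.29 in Lrig1- and 0.18 in Lrig1+ cells. *Id1* differed by -1.36 and -0.64 and *Tcf12* by -0.09 and -0.33. *Tcf4* was the only member whose sets differed in opposite directions, by 0.43 in Lrig1- and -0.14 in Lrig1+ cells. Among the partners, the coactivator *Ep300* was at 326 and 292 CPM in Lrig1- and Lrig1+ cells of set 1 and at 85.2 and 65.5 CPM in set 2, and the adaptor *Ldb1* at 455 and 436 CPM and at 265 and 263 CPM. The T cell marker *Cd3d* went the other way, at 191 and 218 CPM in set 1 and at 686 and 732 CPM in set 2. These genes were named after their values were seen. Differences between the sets were thus not particular to the members, and their cause was not tested.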
